A study of Rattus norvegicus and Mus musculus with 3 samples.

Results

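The complement genes described here are C1qa, C1qb, C1qc, C3, C4b and Serping1, taken by their symbols from the deposited tables of 3 hippocampus libraries. All 6 were found among the 30438 genes listed for the rats and all 6 among the 34714 listed for the mouse. The libraries were 1 from a 2VO rat, 1 from a mouse labelled wild type within the 3xTg-AD model and 1 from a Sham rat. The rats were 3 to 4 months old, the mouse was 6 months old, and all 3 libraries carry the genotype label WT. By common usage 2VO stands for tying off the left and right common carotid artery, which lowers cerebral blood flow in rats, and a Sham animal is operated on without that step. The 3xTg-AD line models Alzheimer's disease through human transgenes, which its wild-type animals lack, and transgenic animals were not analysed here. The rat strain, the interval after surgery and any pooling of animals are not stated by the labels. With 1 library in each group, every difference below describes a pair of libraries, has no replicate error and was not tested.

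Complement is a cascade of secreted proteins. In its classical arm C1q binds a target and activates the proteases C1r and C1s, which cut C4 and C2 into the enzyme that cleaves C3. C3 fragments tag the target for uptake by phagocytes that carry complement receptors. In the brain C1q comes largely from microglia, C3 and C4 can be made by astrocytes, and work in mice has tied C1q and C3 to the removal of synapses by microglia. Serping1 encodes the C1 inhibitor, which inactivates C1r and C1s.

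All 6 genes were lower in the 2VO library than in the Sham library. Their values in 2VO lay between 0.592 (C1qc) and 0.709 (Serping1) of those in Sham. After adding 1 unit to each value, the log2 ratio of 2VO to Sham had a median of -0.55 over the 6 genes. Over all 13550 genes whose mean in the rats reached 1 unit, the median was 0.04. Of those 13550 genes 41.3% were lower and 58.7% higher in 2VO by any amount. On the same scale 2 of the 6 genes, C1qa and C1qc, were at least 1.5-fold lower, a size reached by 0.967% of all genes. Of the 6 genes 0 were at least 2-fold lower, against 0.199% of all genes. The unit of the values is not stated and the depth is unknown, so no counting error can be given. In bulk tissue fewer cells of a type and less RNA per cell cannot be told apart.

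**Figure D1:**
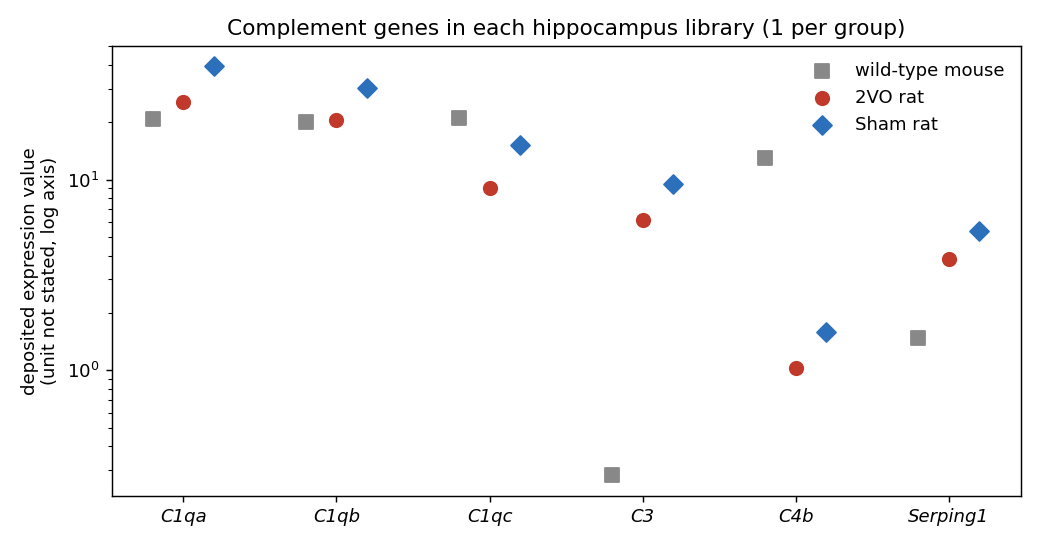
Deposited expression values (unit not stated, log axis) of the 6 complement genes in the wild-type mouse, 2VO rat and Sham rat libraries, 1 point per library. Each 2VO point lies below its Sham point, while the mouse points lie on either side of the rats, from 0.282 for C3 to 21.2 for C1qc.

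The 3 chains of C1q are the recognition unit of the classical arm, and the protein needs all of them. C1qa had 25.6 units in 2VO and 39.3 in Sham, a log2 ratio of -0.60. C1qb had 20.7 units in 2VO and 30.4 in Sham, a log2 ratio of -0.53. C1qc had 9.04 units in 2VO and 15.3 in Sham, a log2 ratio of -0.70, the lowest of the 6 genes. The chains thus differed by similar factors between the libraries, and their proportions stayed close. C1qb stood at 0.808 of C1qa in 2VO and at 0.772 in Sham. C1qc stood at 0.353 of C1qa in 2VO and at 0.388 in Sham. Summed, the chains came to 55.4 units in 2VO and 84.9 in Sham. Among all 13550 genes 0.893% had a log2 ratio at or below that of C1qa, 1.29% at or below that of C1qb and 0.554% at or below that of C1qc.

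C1qb, C1qc and C1qa are direct neighbours on rat chromosome 5 among the protein-coding genes of a RefSeq table for the assembly GRCr8, flanked by the ephrin receptor genes Ephb2 and Epha8. The flanking genes, read after their values were seen, differed less than the chains. Ephb2 had 7.43 units in 2VO and 6.92 in Sham, and Epha8 had 24.4 units in 2VO and 30.3 in Sham. For both C1q genes with an entry in the RefSeq promoter table, the 250 bases before the start of the gene are shown, because these neighbouring genes were lower together. The C1qa window is chr5:154419934-154420183 and the C1qb window chr5:154407828-154408077, both on the minus strand of GRCr8, and capitals mark motif matches.
C1qa: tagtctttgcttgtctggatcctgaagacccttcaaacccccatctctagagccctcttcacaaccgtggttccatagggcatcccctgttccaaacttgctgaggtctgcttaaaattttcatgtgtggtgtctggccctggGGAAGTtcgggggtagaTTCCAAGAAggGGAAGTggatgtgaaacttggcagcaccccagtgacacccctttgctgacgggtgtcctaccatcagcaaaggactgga
C1qb: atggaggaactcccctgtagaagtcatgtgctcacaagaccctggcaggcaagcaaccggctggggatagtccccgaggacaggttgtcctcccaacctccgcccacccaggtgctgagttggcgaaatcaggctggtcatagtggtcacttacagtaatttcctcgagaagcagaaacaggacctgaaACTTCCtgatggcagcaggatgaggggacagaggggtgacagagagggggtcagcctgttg
The motifs searched on both strands were GGAAGT (the core bound by ETS factors, a family that includes the myeloid factor PU.1), TTGCNNAA (C/EBP factors), TTCNNNGAA (STAT factors), CACGTG (the E-box) and TATAAA (the TATA box). None of these motifs overlaps another in the windows printed here. C1qa held GGAAGT at 107 to 102 and at 79 to 74 bases before the start, and TTCCAAGAA, a match to TTCNNNGAA, at 90 to 82 bases before it. C1qb held GGAAGT on the opposite strand, printed as ACTTCC, at 61 to 56 bases before the start. Among all 33469 windows of this length in that RefSeq set, 19.2% held GGAAGT and 7.67% held TTCNNNGAA, so these letters are common and mark no binding site by themselves.

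C3 is the component on which all arms of the cascade meet. It had 6.13 units in 2VO and 9.55 in Sham, a log2 ratio of -0.57, and 1.06% of all genes had a ratio at or below it. Of the genes beside C3 in GRCr8, Gpr108 did not share this difference, with 15.7 units in 2VO and 14.1 in Sham. Tnfsf14, on the other side, was near 0 in both rats, too low to show whether it did. The C4 protein is cut by C1s and joins C2 in the enzyme that cleaves C3. C4b had 1.03 units in 2VO and 1.59 in Sham, a log2 ratio of -0.35, and 3.71% of genes lay at or below it. At so low a value 1 added unit understates the difference, since the plain ratio of 0.646 in C4b was close to the 0.642 in C3. C4a, the paralogous copy of C4b, had 2.48 units in 2VO and 3.44 in Sham, a log2 ratio of -0.35. C4a and C4b summed to 3.51 units in 2VO and 5.03 in Sham.

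C4a and C4b are paralogous genes that share sequence, and the labels do not say how the authors' quantification divided shared reads between them. In the GENCODE M21 transcripts of the mouse, 35.2% of the 50-base stretches of the longest C4b transcript also occur in C4a. For the other 5 genes 0% of such stretches occur in a transcript of another gene. Single values of C4a and C4b are therefore uncertain, whereas their sum depends less on that division. The rat transcripts were not compared in this way. The promoter windows of C3 (chr9:2201340-2201589, minus strand) and C4b (chr20:4201729-4201978, plus strand) in GRCr8 are shown because both genes were also lower in 2VO, with motif matches in capitals.
C3: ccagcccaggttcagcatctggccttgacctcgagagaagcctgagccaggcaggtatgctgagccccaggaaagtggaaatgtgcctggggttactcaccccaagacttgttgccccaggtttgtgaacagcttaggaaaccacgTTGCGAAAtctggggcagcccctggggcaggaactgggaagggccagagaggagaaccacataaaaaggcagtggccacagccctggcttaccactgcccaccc
C4b: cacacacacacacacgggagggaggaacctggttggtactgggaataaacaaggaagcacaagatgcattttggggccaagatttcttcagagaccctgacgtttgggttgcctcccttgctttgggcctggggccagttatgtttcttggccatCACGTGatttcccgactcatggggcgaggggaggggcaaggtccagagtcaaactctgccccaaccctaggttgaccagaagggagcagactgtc
C3 held TTGCGAAA, a match to TTGCNNAA, at 104 to 97 bases before the start, a motif found in 9.22% of all windows. C4b held the E-box CACGTG at 95 to 90 bases before the start, found in 5.59% of windows. TATAAA, found in 12.9% of windows, was in 0 of the 4 windows shown, and none of the motifs was common to all 4.

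Serping1 had 3.83 units in 2VO and 5.40 in Sham, a log2 ratio of -0.41, and 2.65% of genes had a ratio at or below it. The gene for the C1 inhibitor was thus lower in the library in which C1r and C1s were also lower. C1r had 3.81 units in 2VO and 5.91 in Sham, and C1s had 1.98 units in 2VO and 2.90 in Sham. The C1q sum stood at 14.5 times Serping1 in 2VO and at 15.7 times in Sham. The C1q chains and the gene for the C1 inhibitor thus kept nearly the same proportion in both rats. Beside Serping1 in GRCr8, Ube2l6, an enzyme of the interferon-induced ISG15 pathway, had 0.970 units in 2VO and 1.88 in Sham, and Ypel4 had 23.6 units in 2VO and 26.5 in Sham.

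**Figure D2:**
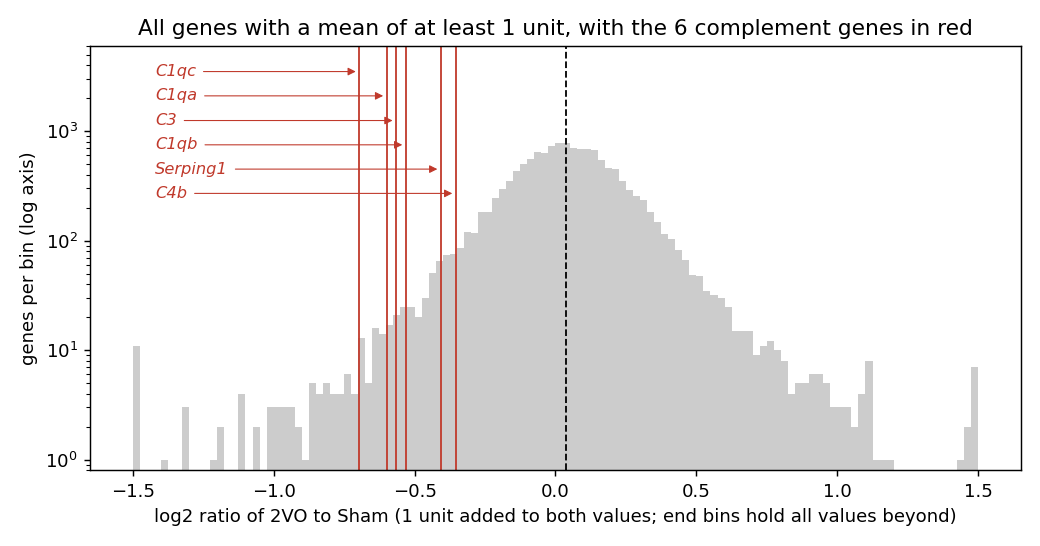
Histogram of the log2 ratio of 2VO to Sham over 13550 genes (x axis, 1 unit added to both values; y axis, genes per bin on a log scale), with the median of all genes as a dashed line and the 6 complement genes as red lines. The 6 lines run from -0.70 for C1qc to -0.35 for C4b, in the lower tail, and 4 of them lie below -0.41, the lower bound of the central 95% of all genes.

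The wider complement pathway was not lower throughout. Of 60 pathway genes listed for the rat, 34 had a mean of at least 1 unit, and 20 of these were lower and 14 higher in 2VO, with a median log2 ratio of -0.09. Without the 6 genes above, the other 28 divided evenly at 14 lower and 14 higher, with a median of -0.0031. With the libraries scaled to equal upper quartiles those 28 divided into 19 lower and 9 higher, and 55.6% of all genes were then lower in 2VO.

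Genes that start the cascade were mostly lower. In the classical and lectin initiation list 10 of 12 measured genes were lower in 2VO, as deposited and under each of the 3 other scalings, with a median of -0.37 as deposited. Of these 12 genes 4 are C1qa, C1qb, C1qc and C4b, and of the other 8 as deposited 6 were lower. Under the other scalings 48.5% to 55.6% of all genes were lower. C2, which supplies the protease of the C3-cleaving enzyme, had the lowest ratio, at 2.72 units in 2VO and 5.62 in Sham, a log2 ratio of -0.83. With 1 unit added to both values it was the 1 measured pathway gene outside the 6 with a difference of at least 1.5-fold. The lectin arm, in which MASP proteases take the place of C1r and C1s, was divided. Masp1 had 13.8 units in 2VO and 11.3 in Sham, while Masp2 had 8.77 units in 2VO and 9.62 in Sham. In the alternative arm all 3 measured genes were lower, C3 included. Cfb, which encodes the protease factor B, had 1.27 units in 2VO and 1.96 in Sham, and Cfp, which encodes the stabilising protein properdin, had 6.57 units in 2VO and 8.27 in Sham.

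The late components were barely detected. Of 7 genes of the membrane attack complex only C8g reached a mean of 1 unit, at 3.13 units in 2VO and 3.15 in Sham. C7 had 0.472 units in 2VO and 0.449 in Sham, and C5 had 0.0512 units in 2VO and 0.0235 in Sham.

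Regulators were divided, and their balance depended on the scaling. Of 12 measured regulators 10 were higher and 2 lower in 2VO as deposited, with a median of 0.08, but with equal upper quartiles 6 were higher and 6 lower. Over all genes 58.7% were higher as deposited, with a median of 0.04, and 55.6% were lower with equal upper quartiles. All 12 regulators differed by less than 1.5-fold, and 1.51% of all genes were higher by that factor. Clu, the clusterin gene, whose product blocks assembly of the membrane attack complex, had 418 units in 2VO and 417 in Sham. Cd59, which encodes a surface inhibitor of the same step, had 50.9 units in 2VO and 42.9 in Sham. Susd4, which encodes a membrane inhibitor of complement, had 46.1 units in 2VO and 36.8 in Sham. Serping1 was thus the regulator with the lowest ratio, and Cd46 the other one below 0, at 1.19 units in 2VO and 1.20 in Sham.

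Receptor genes were divided, with log2 ratios from -0.33 for Itgb2 to 0.34 for Megf10. Of 6 measured receptor genes 4 were lower and 2 higher in 2VO as deposited, with a median of -0.10. Under upper-quartile and median-of-ratios scaling 5 were lower and 1 higher, with medians of -0.15 and -0.14. With equal sums without the 50 most abundant genes 4 were lower and 2 higher. Over all genes 41.3% were lower as deposited and 48.5% to 55.6% under the other scalings. Itgam and Itgb2, which encode both subunits of the C3 fragment receptor CR3 of microglia, had 3.60 and 2.54 units in 2VO and 4.63 and 3.44 in Sham. Their log2 ratios were -0.29 and -0.33, with 5.70% and 4.43% of all genes at or below them. C3ar1, the receptor for the C3a fragment, did not reach a mean of 1 unit, with 0.699 units in 2VO and 0.755 in Sham. Megf10, an astrocyte receptor for engulfment that can bind C1q, had 7.59 units in 2VO and 5.80 in Sham. C1qbp, which encodes a mainly mitochondrial protein that binds C1q, had 45.1 units in 2VO and 43.7 in Sham. Lrp1, an endocytic receptor, had 47.3 units in 2VO and 51.7 in Sham.

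**Figure D3:**
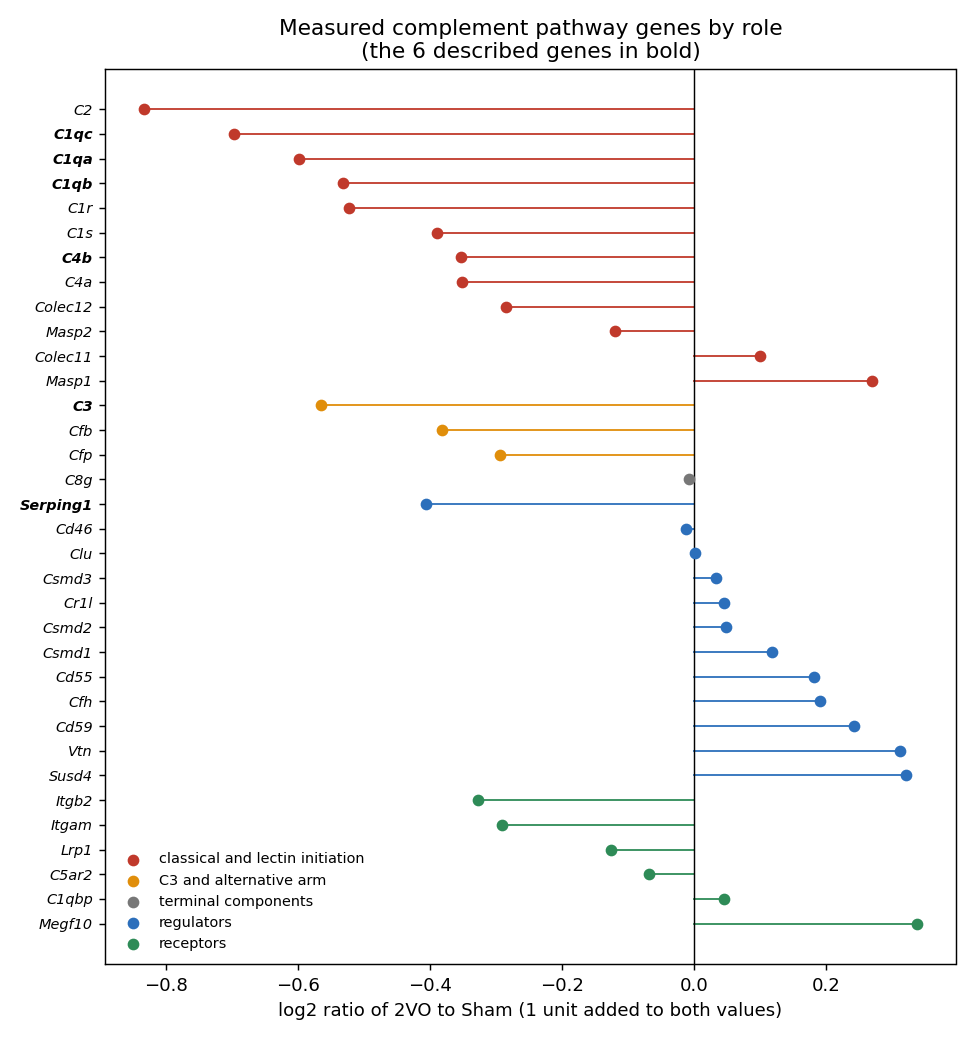
Log2 ratio of 2VO to Sham (x axis, 1 unit added to both values) for the 34 measured complement pathway genes, coloured by role, with the 6 genes described here in bold. Initiation genes lie mostly left of 0 with C2 at -0.83, and in the values as deposited the regulators other than Serping1 lie near or right of 0.

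Marker levels of the cells that make complement are given beside these differences, and their part in the result was not tested. The microglia list, which contains none of the 6 genes, had 8 of 14 measured members lower and 6 higher in 2VO, with a median of -0.07. Over all genes 41.3% were lower. All 18 listed microglial genes summed to 273 units in 2VO and 295 in Sham, so the sums were nearer to each other than those of C1q. The C1q sum stood at 20.3% of the microglial sum in 2VO and at 28.8% in Sham. Csf1r, the receptor that microglia need to survive, had 23.6 units in 2VO and 29.1 in Sham, and Tyrobp, a signalling adaptor, had 8.45 units in 2VO and 11.3 in Sham. P2ry12, a purinergic receptor of microglia, had 8.83 units in 2VO and 5.49 in Sham, and Selplg, an adhesion ligand, had 23.4 units in 2VO and 18.5 in Sham. The ratios of the list ran from -0.78 for Aif1 to 0.60 for P2ry12. With the median of the microglia list subtracted, the median of the 6 complement genes was -0.48. Perivascular macrophage markers were low, with 0 of 7 at a mean of 1 unit and a sum of 1.73 units in both rats. Siglech, a microglial gene in mice, was listed at 0 in both rats.

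Of 14 measured reactive astrocyte markers 12 stood lower in 2VO, against 41.3% of all genes, and the median of the markers was -0.52. All 19 listed reactive astrocyte genes summed to 426 units in 2VO and 862 in Sham, most of it Gfap. General astrocyte markers had 8 of 12 lower and 4 higher, with a median of -0.04 and sums of 1071 units in 2VO and 1004 in Sham. Aldoc alone had 379 units in 2VO and 302 in Sham, a wider gap than that between the sums. Under each of the 3 other scalings 10 of the 12 were lower and 2 higher, against 48.5% to 55.6% of all genes lower. Of 11 blood leukocyte markers 2 were measured, Cd3e and Cd4, and both were lower in 2VO. Of the other T cell genes Cd3d was listed at 0 in both rats, Cd3g had 0.119 units in 2VO and was listed at 0 in Sham, and Cd8a was listed at 0 in 2VO and had 0.0362 units in Sham. The leukocyte list summed to 2.94 units in 2VO and 11.6 in Sham, with 5 markers at 0 in 2VO and 4 in Sham. Markers of other cells also differed between the rats. As deposited 58.7% of all genes were higher in 2VO, with a median log2 ratio of 0.04. On the same values all 10 oligodendrocyte genes were higher, with a median of 0.33. So were 9 of 11 neuronal genes, with a median of 0.31, and 5 of 6 measured ependymal genes, with a median of 0.51. Of 11 housekeeping genes 7 were also higher and 4 lower, with a median of 0.13. The counts of these lists were not repeated under the other scalings. Of 12 choroid plexus genes 3 were measured, of which 2 were higher and 1 lower in 2VO. Ttr, the main choroid plexus transcript, had 4.75 units in 2VO and 0.434 in Sham. Kcne2, the lower one, had 1.52 units in 2VO and 1.66 in Sham. The part of these marker differences in the complement values was not tested. Liver markers, which stand for the main source of plasma complement, summed to 2.57 units in 2VO and 2.43 in Sham, with 3 of 8 at 0 in 2VO and 2 of 8 in Sham. Beside the tissue label, 6 hippocampal genes were read, chosen after the data were seen. Of these 5 had a mean of at least 1 unit in the rats. That level was reached by 13550 genes, so it cannot check the label. Prox1, a transcription factor of dentate granule cells, had 14.8 units in 2VO, 17.8 in the mouse and 17.2 in Sham. Wfs1, enriched in CA1, had 111 units in 2VO and 169 in Sham, a log2 ratio of -0.60, the lowest of these 6 genes. Fibcd1, also among the 6, was higher in 2VO, at 20.7 units against 18.3 in Sham. Zbtb20 had 1.38 units in 2VO and 1.40 in Sham. Spink8, a CA1 gene in mice, had 18.8 units in the mouse but 0.0741 in 2VO and 0.0696 in Sham.

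**Figure D4:**
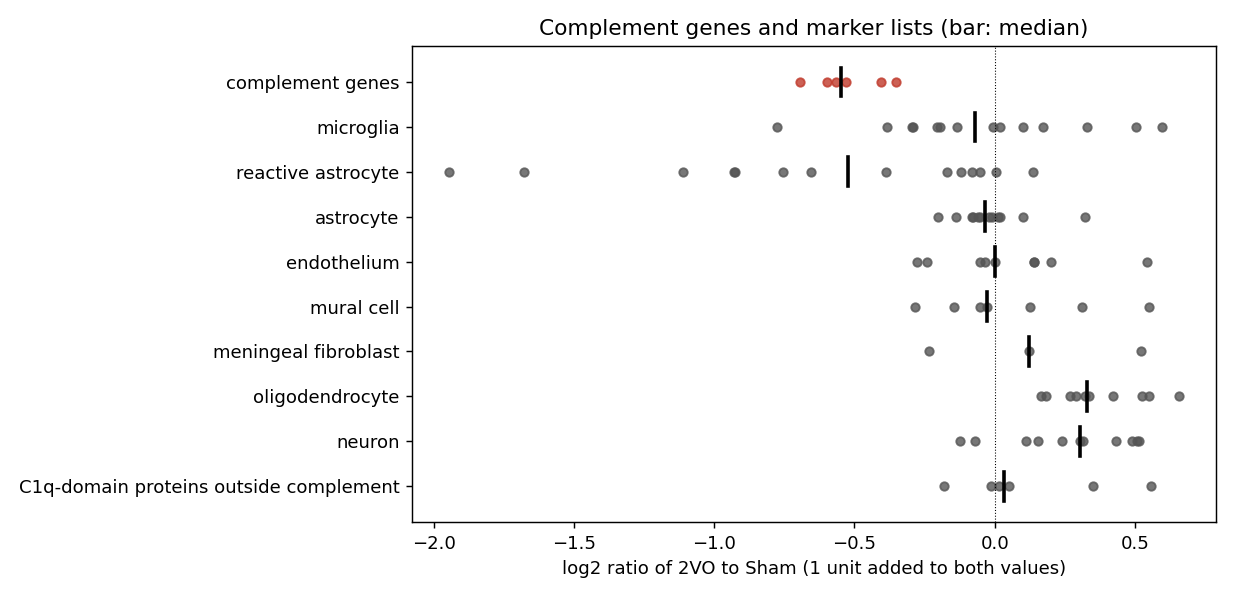
Log2 ratio of 2VO to Sham (x axis, 1 unit added to both values) for each measured gene of the complement genes and of 9 marker or comparison lists, with the median as a bar. The complement median of -0.55 lies near that of reactive astrocyte genes at -0.52 and below that of microglial genes at -0.07.

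The wild-type mouse library was set beside the Sham rat as levels only, since species, age and animal cannot be told apart. Of the 6 genes 4 were lower and 2 higher in the mouse, with a median log2 ratio of mouse to Sham of -0.73, or -0.065 over the 4 of them averaging 5 units or more, while 57.2% of the 11436 shared genes that averaged 1 unit or more were lower and 42.8% higher in the mouse. At least 2-fold differences were seen for 2 genes lower and 1 higher, against 11.3% of shared genes lower and 6.54% higher by that factor. In the mouse C1qa had 20.9 units, C1qb 20.0 and C1qc 21.2, on a scale not stated to be per length. Their sum of 62.1 units in the mouse lay below the 84.9 units in Sham and above the 55.4 units in 2VO. C1qa and C1qb were lower in the mouse than in Sham, while C1qc was higher, so that C1qc stood at 1.01 of C1qa in the mouse and at 0.388 in Sham. The gene models of the species were not compared, and their effect on this proportion was not tested.

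Among the 6 genes C3 and C4b differed most between the mouse and the Sham rat, in opposite directions. C3 had 0.282 units in the mouse and 9.55 in Sham, a ratio of 0.0295. C4b had 12.97 units in the mouse and 1.59 in Sham, a ratio of 8.13, while C4a had 0.322 units in the mouse and 3.44 in Sham. The sum of C4a and C4b, which depends less on how shared reads were divided, was 13.3 units in the mouse and 5.03 in Sham, a ratio of 2.64. The larger part of the C4 signal was thus listed under C4b in the mouse and under C4a in both rats. Serping1 had 1.48 units in the mouse and 5.40 in Sham. C2 was likewise lower in the mouse, at 0.430 units against 5.62 in Sham, while Cfp was nearer, at 5.71 units in the mouse and 8.27 in Sham. Values across the species rest on separate annotations, and the labels do not establish a common scale for them.

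Among the 5 genes whose pattern over the 3 libraries was nearest to the mean of the C1q chains were Plekha2, Ddn, Gtpbp6 and Frzb. Likeness was the Euclidean distance over the log2 differences of 2VO from Sham and of mouse from Sham, which average -0.61 and -0.34 for C1q. The chains disagreed on the difference of mouse from Sham, at -0.88 for C1qa, -0.58 for C1qb and 0.45 for C1qc. Their mean is thus the pattern of no single chain, and nearness to it does not measure likeness to any of them. Of 8289 shared genes averaging 5 units or more, 5 lay within 0.1 of this mean and 24 within 0.25. Plekha2, the nearest, had 5.34 units in 2VO, 6.62 in the mouse and 8.66 in Sham. None of the 5 nearest genes is in the microglia list, but nearness to this mean cannot decide whether C1q follows microglial genes. A pattern over 3 libraries is also a weak measure of likeness.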

How the data were processed

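Per the labels' protocols, hippocampal total RNA was prepared by a TruSeq RNA Library Prep Kit v2 workflow. Per the submitters' processing notes, the builds were mRatBN7.2 and GRCm39 and the tools HISAT2 2.1.0, fastp 0.21.0 and DESeq2, with no roles given. The quantifier, annotation and filters were not stated. For each library the authors deposited a normalized signal per gene, in a unit that is not named. Values summed to 333941 in 2VO, 268889 in the mouse and 325636 in Sham. Low values of the rats share no common step, so whole reads were not recovered and depth is unknown.

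Values were used as deposited. The ratio of 2VO to Sham was log2 of the values with 1 unit added to both, over genes whose mean reached 1 unit. No test was run with 1 library per group. The self-test on simulated data passed. The 6 genes, the lists and the naming rule were chosen with earlier results of these data known. Named were the 6 genes, other pathway genes at least 1.5-fold apart and the 3 highest of each role; C1r, C1s, C4a, Masp2, Itgam, Itgb2, C3ar1, Cd46, the promoter motifs, the neighbours and the single markers were added after their values were seen. Some genes that the rule takes are not reported here. Promoters and neighbours came from RefSeq tables for GRCr8, where 6 of the 6 symbols matched a gene and 4 a promoter; no deposited value uses those coordinates. Python 3.11.15, pandas 2.3.3, numpy 2.4.6, statsmodels 0.14.6 and matplotlib 3.10.9 were used.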

Additional observations from a re-analysis of the deposited data

How the results depend on the processing

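All 6 complement genes were lower in 2VO than in Sham under all 3 other scalings, with 0.25 or 4 units added, without a filter and with ratios centred on a lowess fit to expression (span 0.3). A minimum mean of 5 units kept 4 of the genes, all lower. The median over the 6 genes was closer to 0, at -0.45, with 4 units added, and it moved by less than 0.1 under the other settings. The median over the measured pathway genes changed sign to 0.023 with a minimum mean of 5 units, which left out C2, C4b and Serping1 among others. The median log2 ratio of mouse to Sham was -0.62 with upper-quartile scaling, -0.60 with median-of-ratios scaling, -0.52 with equal sums without the 50 most abundant genes and -0.065 with a minimum mean of 5 units; the last setting uses fewer genes, and the cause of the other shifts was not tested. C4b ranged from -0.53 to -0.15 with the added unit. Results without C4b or without the 6 genes were chosen after seeing the data. No paired analysis was possible because each group holds 1 library. No alternative replaces a replicate.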

Other observations

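Genes that share the C1q domain but lie outside complement did not show the difference of C1q. Of 6 measured genes 2 were lower and 4 higher in 2VO as deposited, and 4 were lower and 2 higher with equal upper quartiles. Over all genes 41.3% were lower as deposited and 55.6% with equal upper quartiles. C1ql2, a synaptic organiser of dentate mossy fibres, had 95.8 units in 2VO and 96.6 in Sham, and C1ql3, a related secreted protein, had 76.9 units in 2VO and 87.3 in Sham. Cbln2, a cerebellin that links pre- and postsynaptic receptors, had 3.56 units in 2VO and 2.096 in Sham. Within the microglia list, Aif1, which encodes Iba1, had 13.5 units in 2VO and 23.8 in Sham, a log2 ratio of -0.78 below that of C1qc, whereas P2ry13, a purinergic receptor, had 2.43 units in 2VO and 1.42 in Sham. These genes were picked after their values were seen.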
